A study of Homo sapiens with 72 samples.

Results

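The mRNAs of the EGFR (ErbB) family were followed in wild-type and TUT4/7 catalytic knockout (cKO) cells of 2 human cancer cell lines. The family was taken as 4 receptors (EGFR, ERBB2, ERBB3 and ERBB4) and 6 ligands (EGF, TGFA, HBEGF, AREG, EREG and BTC) and listed by name. All 10 genes were found among the 26485 genes of the mRNA count tables. TUT4 and TUT7 are terminal uridylyl transferases that add uridines to the 3′ ends of RNAs, and LIN28A is an RNA-binding protein that recruits them to let-7 precursors. The 36 poly(A)-selected libraries formed 9 groups of 4. IGROV1, an ovarian cancer line with genotype LIN28A+, and DU145, a prostate cancer line with genotype LIN28A-, were each sequenced as the untargeted parental line (TUT4+; TUT7+) and as 2 CRISPR clones (TUT4-; TUT7-), here cKO 1 and cKO 2. The same 3 DU145 genotypes were also sequenced with LIN28A overexpressed (LIN28A-OE DU145) from a stably integrated lentiviral cDNA driven by a CMV promoter. These LIN28A-OE lines were made from DU145 wild type and its TUT4/7 mutants, so they are not independent of the DU145 groups. The clone numbers are labels only, and cKO 1 of IGROV1 and cKO 1 of DU145 are unrelated clones. Each cKO group is labelled as 1 clone, and its 4 libraries are successive passages, so the p-values measure the spread between such libraries and not between independent clones. DU145 wild type was at passages up to 160 and its cKO clones at passages 8 to 12, whereas all LIN28A-OE groups were at passages 1 to 4. IGROV1 wild type was at passages 6 to 9, its cKO 1 at 2 to 5 and its cKO 2 at 3 to 6. Genotype and passage therefore cannot be told apart in DU145 or in IGROV1 cKO 1, and overlap at a single passage in IGROV1 cKO 2. In the labels of DU145 cKO 2 and of both IGROV1 clones the final digit of the clone name counts up with the replicate, so whether these libraries are 1 clone or subclones is not known. The grouping used here followed the sample titles.

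The receptors are membrane tyrosine kinases that pair when a ligand binds and then signal through RAS-ERK and PI3K. EGF, amphiregulin (AREG) and TGF-alpha (TGFA) bind EGFR, while HB-EGF (HBEGF), betacellulin (BTC) and epiregulin (EREG) bind both EGFR and ERBB4. ERBB2 has no known ligand and serves as the preferred partner of the others, and ERBB3 has weak kinase activity and is activated by neuregulins. All of the ligands are made as membrane-anchored precursors that ADAM proteases cut free, and many carcinoma cells stimulate their own EGFR in this way.

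Reads assigned to genes ranged from 7195437 to 25054688 per library. Levels are given as CPM, the count of a gene scaled to these reads, and, where genes are compared with each other, as CPM per kilobase of the canonical transcript. TUT4 CPM was 70.2 to 84.3 in IGROV1 wild type against 10.6 to 33.8 in cKO 1 and 17.1 to 32.1 in cKO 2. In DU145 it was 44.9 to 66.0 in wild type, 5.0 to 15.5 in cKO 1 and 27.3 to 49.8 in cKO 2, and in LIN28A-OE DU145 it was 52.3 to 76.3, 15.9 to 24.4 and 58.6 to 65.0. TUT7 was lower in all 6 cKO groups (log2 fold changes from -0.85 to -1.6), and TUT4 was lower in 4 of them, the exceptions being cKO 2 of DU145 (log2 fold change -0.56, adjusted p = 0.071, edgeR) and of LIN28A-OE DU145 (-0.25, adjusted p = 0.47, edgeR). These are counts over whole genes and do not show the edit itself. LIN28A was at a mean of 226, 202 and 266 CPM in IGROV1 wild type, cKO 1 and cKO 2, at most 0.46 CPM in DU145, and 64.8 to 74.7, 325 to 406 and 229 to 320 CPM in the wild-type, cKO 1 and cKO 2 groups of LIN28A-OE DU145. The LIN28A level thus differed between the last 3 groups (log2 fold changes 2.4 ± 0.19 and 1.78 ± 0.19 against wild type), and its part in their differences was not tested. PAX8, a marker of ovarian carcinoma, was at 428 to 854 CPM in IGROV1 and at most 2.92 CPM in DU145-derived libraries. The other listed ovarian markers did not follow it. MUC16 was at 1.24 to 2.79 CPM in IGROV1 wild type and higher in DU145 wild type, at 11.05 to 34.04 CPM. WT1 was at most 0.415 CPM in IGROV1 wild type and 0.104 CPM in DU145 wild type. KLK3, a marker of luminal prostate cells, was at most 0.0753 CPM in DU145-derived libraries. The leukocyte marker PTPRC was at most 0.343 CPM in any library. Replicate 4 of both cKO clones of IGROV1 and of DU145 was the library least like its group and these 4 libraries deviated together (r of their deviations 0.45 to 0.83), so each call was repeated without them. In these libraries longer transcripts were lower relative to their group, with Spearman correlations of the deviation with transcript length, across genes, of -0.35 and -0.32 in IGROV1 cKO 1 and cKO 2 and -0.29 in both DU145 clones. In DU145 wild type the values were -0.33, 0.22, 0.21 and 0.01 in replicates 1 to 4. Genes are not independent replicates, and the part of transcript length in the results was not tested. In LIN28A-OE wild type the library least like its group was replicate 1.

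The parental lines differed in receptors and ligands. Between DU145 and IGROV1 wild type, 10 of 10 members passed an adjusted p below 0.01 in edgeR's quasi-likelihood test, against 60.0% of the 15556 genes tested. ERBB4 and TGFA passed the count filter only through the line where they are high and so had to differ. EGF and BTC also passed it only through DU145-derived libraries, where they are higher, so the filter favoured their calls. The calls of these 4 members are no support for a difference between the lines. Line, tissue of origin and culture medium cannot be told apart in this comparison. Per kilobase, IGROV1 wild type held most ERBB2 (49.6 CPM per kb), then ERBB4 (13.3), EGFR (9.48) and ERBB3 (1.85). DU145 wild type held EGFR and ERBB2 at like levels (31.1 and 30.9 CPM per kb), ERBB3 at 6.81 and almost no ERBB4 (0.0133). ERBB4 was at 152, 159.2, 155 and 176 CPM in the 4 IGROV1 wild-type libraries, and in DU145 wild type only replicate 3 held any reads of it, 7 in all (0.644 CPM). DU145 wild type expressed AREG at 68.5 CPM per kb, EREG at 20.0, TGFA at 17.7 and HBEGF at 12.7, with BTC at 1.61 and EGF at 0.542. In IGROV1 wild type EREG was the highest ligand at 2.60 CPM per kb, followed by AREG at 1.48, and the other 4 were below 0.44. TGFA was all but absent from IGROV1, with 3 reads over the 4 wild-type libraries against 2839 in DU145 wild type, a ratio of 1720 (exact Clopper-Pearson 95% interval 589 to 8350, counting error only). IGROV1 thus combined ERBB2, ERBB4 and EGFR with little ligand mRNA, and DU145 combined EGFR and ERBB2 with 4 abundant EGFR ligands.

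**Figure D1:**
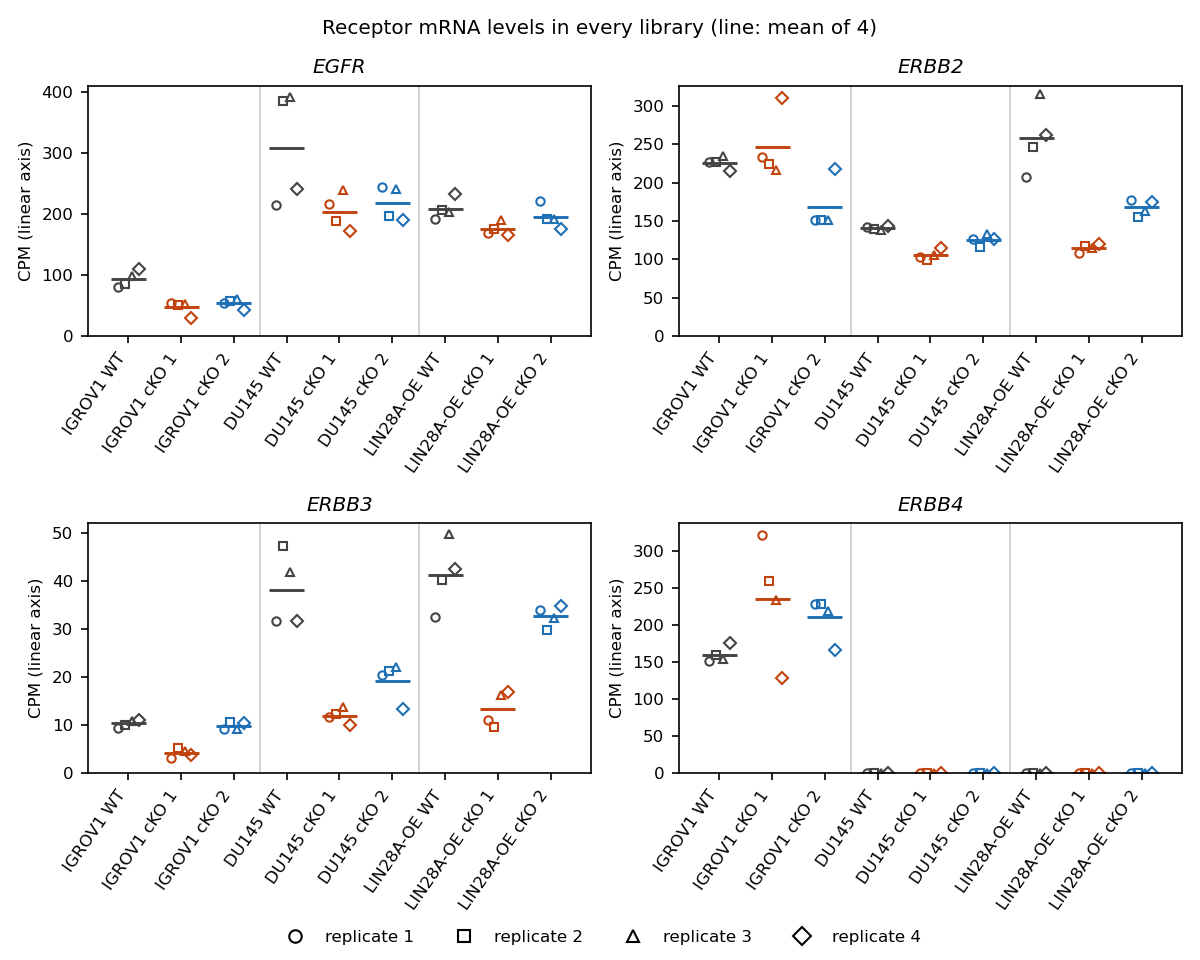
CPM (vertical, linear axis from 0) of the 4 receptor mRNAs in every library, by group (horizontal), with 1 symbol per replicate and a line at the mean of 4. ERBB3 was lowest in the cKO 1 group of each background, ERBB4 was confined to the IGROV1 groups at this scale, and replicate 4 of the IGROV1 cKO clones lies apart for ERBB2 and ERBB4.

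Loss of TUT4/7 was compared with wild type in each clone separately; both clones of a background share the same 4 wild-type libraries. In IGROV1, 5 of 10 members were lower in cKO 1 (31.1% of all genes tested were called in either direction) and 5 of 10 in cKO 2 (30.1% of all genes), and no member was higher in either. In DU145, 5 members were lower and 1 higher in cKO 1 (21.8% of all genes called), and 2 were lower and 2 higher in cKO 2 (20.5%). In LIN28A-OE DU145, 5 were lower in cKO 1 (25.2%), while in cKO 2 1 was lower and 3 were higher (20.6%). The median log2 fold change of the 10 members was -0.91 and -0.33 in IGROV1 cKO 1 and cKO 2, -1.13 and -0.33 in DU145, and -0.77 and -0.2 in LIN28A-OE DU145, where the median over all genes tested lay between -0.01 and 0. In these bulk libraries, fewer expressing cells and less mRNA per cell cannot be told apart.

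**Figure D2:**
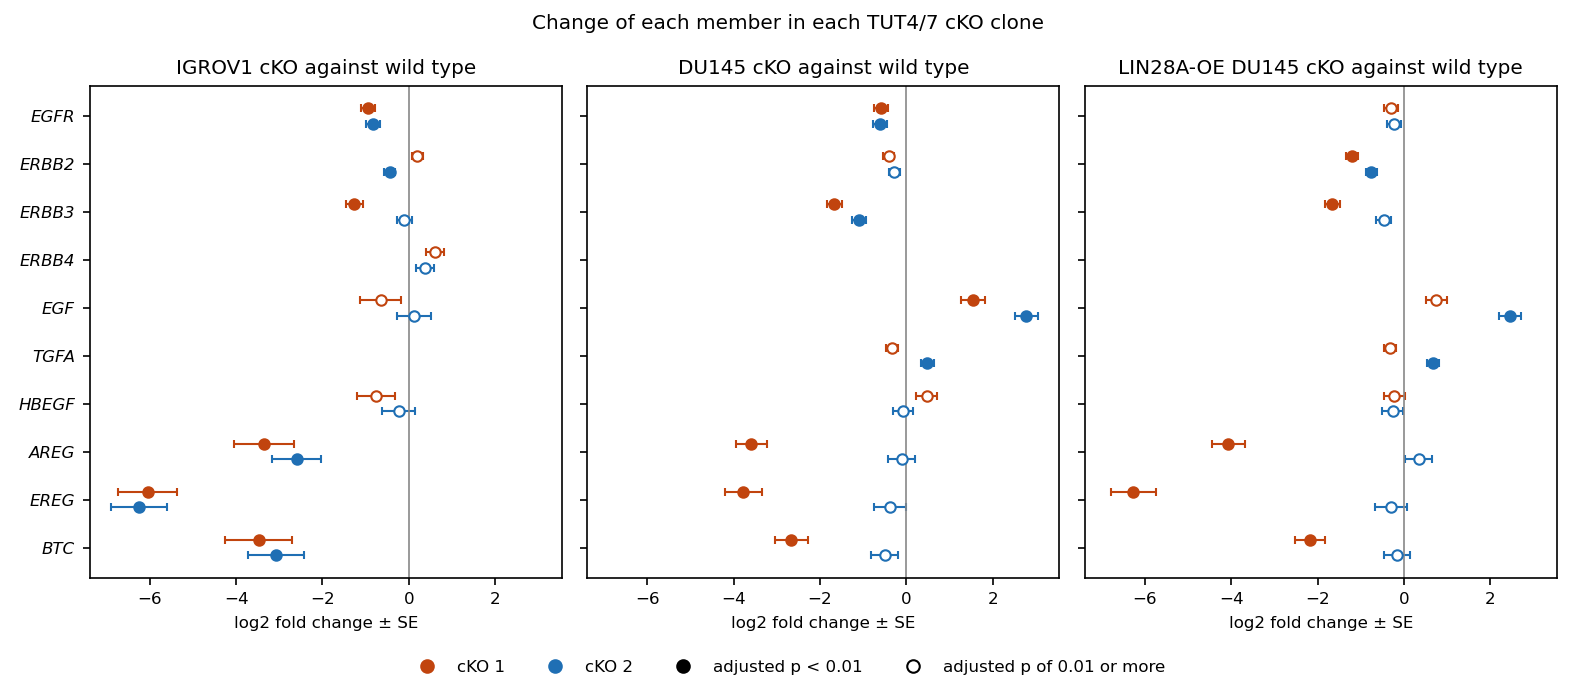
Log2 fold change against wild type (horizontal, error bars are SE of the fit) of each member in cKO 1 and cKO 2 of the 3 backgrounds; filled points passed an adjusted p of 0.01. AREG, EREG and BTC lie far to the left in both IGROV1 clones and in cKO 1 of both DU145 backgrounds, and near 0 in cKO 2 of DU145; ERBB4 in DU145 and TGFA in IGROV1 are left out for their few reads.

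EGFR, the receptor for all 6 ligands, was lower in both cKO clones of IGROV1 and of DU145. In IGROV1 wild type its CPM was 80.8, 85.2, 99.3 and 110.5, against 55.2, 51.6, 52.1 and 29.8 in cKO 1. In cKO 2 it was 54.4, 58.2, 60.5 and 43.6. Neither clone overlapped wild type, and the log2 fold changes were -0.94 ± 0.16 (SE, n = 4 per group; adjusted p = 1.1e-05, edgeR) and -0.82 ± 0.16 (adjusted p = 7.1e-05, edgeR). In DU145 the wild-type libraries were split, with 385 and 392 CPM in replicates 2 and 3 and 214.5 and 241 CPM in replicates 1 and 4. The cKO clones were at 217, 189, 239 and 172 CPM and at 244, 196, 242 and 191 CPM, so both overlapped the lower wild-type libraries. EGFR has a long transcript (9905 bases), and the high wild-type replicates 2 and 3 were those in which long transcripts were relatively high. The log2 fold changes were -0.59 ± 0.16 (adjusted p = 0.0035, edgeR) and -0.61 ± 0.16 (adjusted p = 0.0027, edgeR). The call was lost in both clones without wild-type replicate 2 (-0.48 and -0.51; adjusted p = 0.021 and 0.014) or replicate 3 (-0.46 and -0.49; adjusted p = 0.025 and 0.016), and in cKO 1 also without its own replicate 2 (-0.56, adjusted p = 0.014) or 4 (-0.53, adjusted p = 0.017). In LIN28A-OE DU145, EGFR lay between 166 and 232 CPM in all 12 libraries and neither clone passed the test (-0.3 ± 0.16 and -0.23 ± 0.16). Across the 9 groups, only the gaps between the DU145-derived groups and IGROV1 wild type, and between IGROV1 wild type and its clones, exceeded the library ranges of neighbouring groups.

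ERBB3, the neuregulin receptor, was lower in IGROV1 cKO 1 and in cKO 1 of both DU145 backgrounds, which are not independent of each other. In DU145 wild type its CPM was 31.7, 47.5, 42.0 and 31.7, against 11.6, 12.3, 13.8 and 10.2 in cKO 1 and 20.5, 21.3, 22.2 and 13.3 in cKO 2. No cKO library reached the lowest wild-type one, and the log2 fold changes were -1.67 ± 0.18 (adjusted p = 6.7e-09, edgeR) and -1.1 ± 0.17 (adjusted p = 6.1e-06, edgeR). In LIN28A-OE DU145 the wild type was at 32.5, 40.3, 49.8 and 42.6 CPM and cKO 1 at 11.1, 9.56, 16.3 and 16.9 CPM, again without overlap (-1.66 ± 0.17, adjusted p = 2.9e-09, edgeR). There cKO 2 was at 29.8 to 34.8 CPM, which overlapped the wild type and did not pass the test (-0.47 ± 0.17, adjusted p = 0.03, edgeR). In IGROV1, where ERBB3 is scarce, wild type was at 9.53 to 11.2 CPM and cKO 1 at 3.09, 5.29, 4.54 and 3.75 CPM (-1.26 ± 0.19, adjusted p = 1.6e-06, edgeR), while cKO 2 at 9.18 to 10.7 CPM overlapped wild type (-0.1 ± 0.17). The direct comparison of cKO 1 with cKO 2 gave a lower ERBB3 in cKO 1 of IGROV1 (-1.17 ± 0.19), of LIN28A-OE DU145 (-1.19 ± 0.17) and of DU145 (-0.57 ± 0.18, adjusted p = 0.0095, edgeR). The DU145 call did not hold without cKO 1 replicate 1, 2 or 4 or cKO 2 replicate 1, 2 or 3 (log2 fold changes -0.48 to -0.58, adjusted p = 0.019 to 0.041).

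ERBB2, the partner receptor without a ligand of its own, moved most in LIN28A-OE DU145. Its CPM there was 207.5, 247, 315 and 263 in wild type, 109, 118, 115 and 120 in cKO 1, and 178, 155, 163 and 175 in cKO 2. The 3 groups did not overlap, and the log2 fold changes against wild type were -1.21 ± 0.14 (adjusted p = 1.3e-08, edgeR) and -0.76 ± 0.13 (adjusted p = 4.0e-05, edgeR). In DU145 without LIN28A, the wild type was at 139 to 143 CPM and the clones at 99.0 to 115 and 116 to 134 CPM, also apart from it, with smaller changes that missed the threshold (-0.41 ± 0.13, adjusted p = 0.017; -0.28 ± 0.13, adjusted p = 0.11, edgeR). Both passed when replicate 4 of the 4 cKO groups was left out (-0.48 and -0.3; adjusted p = 9.4e-05 and 0.0084). In IGROV1 replicate 4 stood above its group in both clones, at 310 CPM against 216 to 234 in cKO 1 and at 217 CPM against 151 to 152 in cKO 2, whereas wild type was at 215 to 235. ERBB2 was lower in IGROV1 cKO 2 (-0.44 ± 0.13, adjusted p = 0.0082, edgeR). This call was lost without any 1 of the 4 wild-type libraries or of cKO 2 replicates 1, 2 and 3 (-0.37 to -0.46, adjusted p = 0.012 to 0.04), and the change was -0.63 without cKO 2 replicate 4.

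ERBB4, the other receptor for HB-EGF, betacellulin and epiregulin, was confined to IGROV1 in all but a few reads. Its CPM was 152 to 176 in wild type, 322, 260, 234 and 128 in cKO 1, and 229, 229, 219 and 166 in cKO 2. Replicate 4 was the lowest of both clones and the only one not above every wild-type library. The log2 fold changes were 0.6 ± 0.21 (adjusted p = 0.018, edgeR) and 0.37 ± 0.21 (adjusted p = 0.16, edgeR), and without replicate 4 of cKO 1 the former was 0.8 with an adjusted p of 0.00064. In the DU145-derived groups ERBB4 had 2 to 22 reads per group. In LIN28A-OE DU145 cKO 2 all 4 libraries held reads (7, 5, 6 and 4) against 0, 1, 1 and 0 in wild type, a ratio of 11 (exact 95% interval 2.7 to 96.2, counting error only). The test called this difference (adjusted p = 0.0078, edgeR), but not when any 1 of the 8 libraries was left out (adjusted p = 0.011 to 0.036).

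AREG, EREG and BTC lie within a short stretch of chromosome 4 and were lower together in both IGROV1 clones and in cKO 1 of both DU145 backgrounds. In hg38, EREG spans chr4:74365145-74388749 and AREG chr4:74445136-74455005, both on the plus strand and 56.4 kb apart, and BTC follows on the minus strand at chr4:74744759-74794523, 289.8 kb beyond AREG. Their proximal promoters are shown, from 250 bases before to 50 bases after the start (RefSeq, GRCh38.p14): chr4:74364895-74365194 for EREG, chr4:74444886-74445185 for AREG and chr4:74794474-74794773, minus strand, for BTC. Capitals mark matches, on either strand, to the core of the cAMP response element (CRE), which reads TGACG. They also mark the AP-1 motif, which reads TGANTCA. The last motif in capitals is the TATA box, which reads TATAAA.
EREG: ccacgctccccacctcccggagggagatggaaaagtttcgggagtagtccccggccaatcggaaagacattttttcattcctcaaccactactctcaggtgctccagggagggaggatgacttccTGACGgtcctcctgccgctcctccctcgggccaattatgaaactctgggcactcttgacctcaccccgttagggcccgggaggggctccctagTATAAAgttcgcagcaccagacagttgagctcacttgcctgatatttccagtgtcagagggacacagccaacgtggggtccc
AREG: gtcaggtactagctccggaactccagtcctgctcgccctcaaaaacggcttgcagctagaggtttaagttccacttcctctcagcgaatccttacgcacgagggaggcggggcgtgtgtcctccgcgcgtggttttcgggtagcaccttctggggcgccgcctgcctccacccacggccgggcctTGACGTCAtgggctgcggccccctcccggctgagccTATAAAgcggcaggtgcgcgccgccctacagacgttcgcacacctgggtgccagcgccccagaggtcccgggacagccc
BTC: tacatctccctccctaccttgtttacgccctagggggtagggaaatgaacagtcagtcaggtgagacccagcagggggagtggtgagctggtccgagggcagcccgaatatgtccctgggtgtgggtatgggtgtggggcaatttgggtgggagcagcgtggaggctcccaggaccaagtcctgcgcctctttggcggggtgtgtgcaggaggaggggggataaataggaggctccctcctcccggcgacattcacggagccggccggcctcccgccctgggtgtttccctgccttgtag
The EREG window held 1 match to TGACG and 1 to TATAAA, and the AREG window held 2 overlapping matches to TGACG, one on each strand, and 1 to TATAAA. The BTC window held none of these letters. Among 35116 RefSeq promoters of this length, 24.6% held TGACG, 7.7% held TGANTCA and 11.5% held TATAAA. The other motifs searched were the GC box GGGCGG (45.0% of promoters), with 1 match in AREG and 1 in BTC, and the E-box CACGTG (7.3%), with no match in the 3 windows. Of the 10 members, 9 had a promoter entry.

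**Figure D3:**
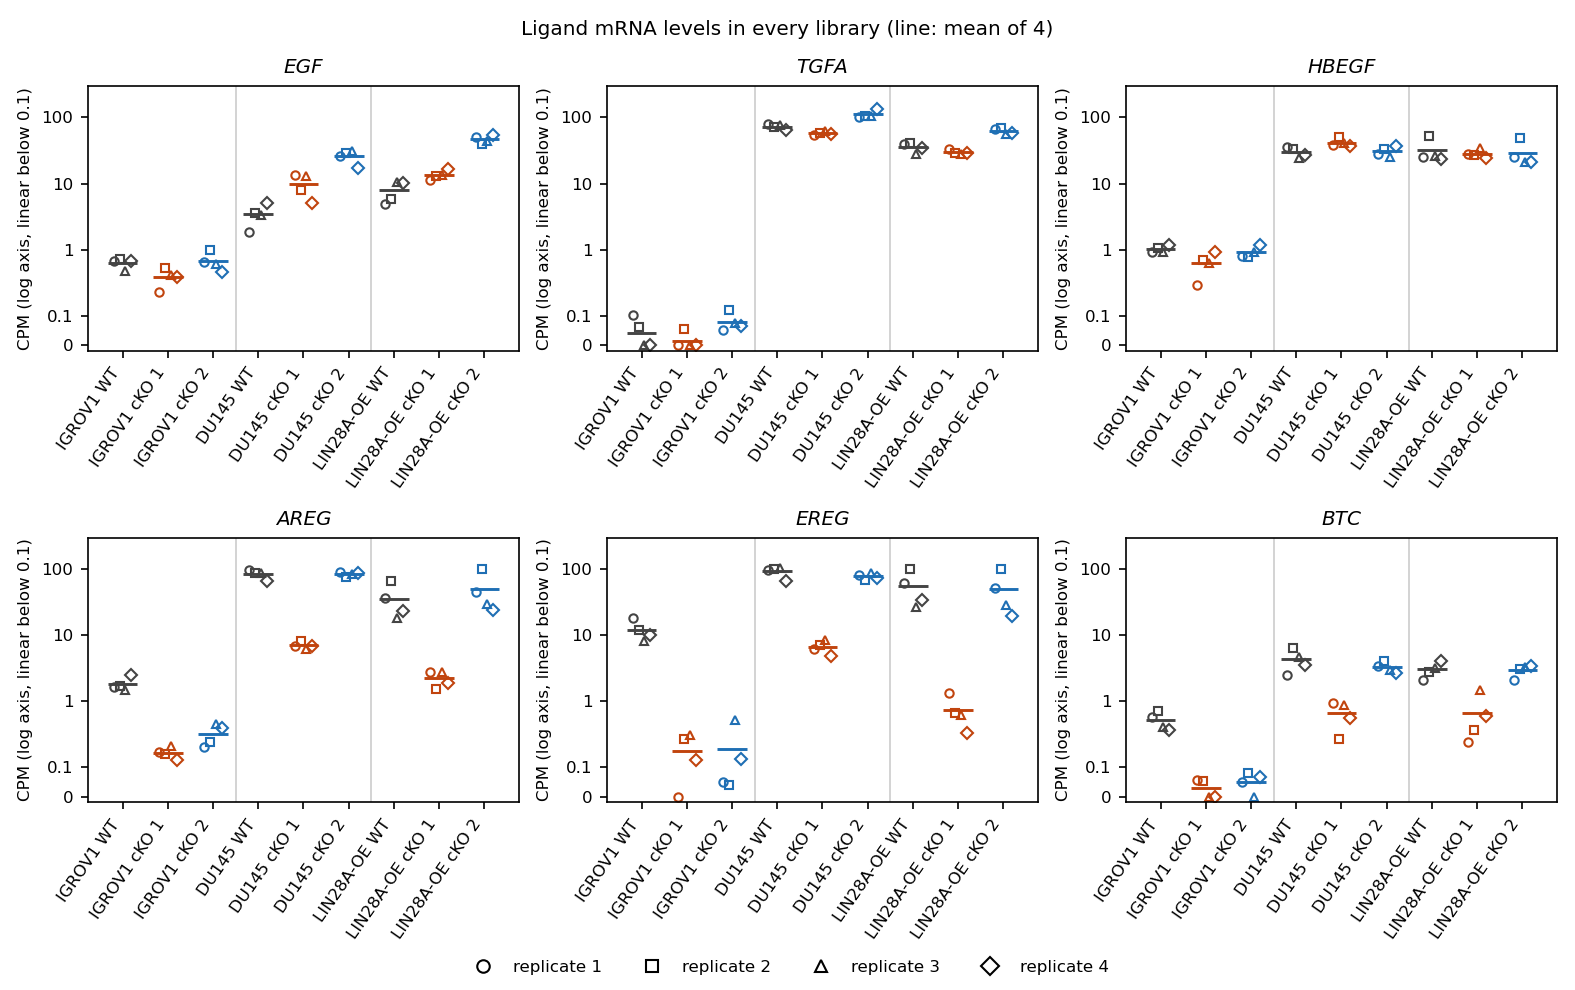
CPM (vertical, log axis that is linear below 0.1) of the 6 ligand mRNAs in every library, by group (horizontal), with 1 symbol per replicate and a line at the mean of 4. AREG, EREG and BTC drop in both IGROV1 cKO clones and in cKO 1 of both DU145 backgrounds, EGF is highest in cKO 2 of both DU145 backgrounds, and HBEGF stays between 20.8 and 52.6 CPM in every DU145-derived library.

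AREG, encoding amphiregulin, was lower in 4 of the 6 cKO groups. In DU145 its CPM was 97.5, 87.4, 88.4 and 65.0 in wild type, 6.92, 8.16, 6.22 and 6.95 in cKO 1, and 92.0, 76.3, 84.0 and 87.3 in cKO 2. The cKO 1 libraries were all far below, at 12-fold less (log2 fold change -3.59 ± 0.35, adjusted p = 1.4e-09, edgeR), while cKO 2 overlapped wild type (-0.11 ± 0.31, adjusted p = 0.82, edgeR). In LIN28A-OE DU145 the wild type was at 36.5, 65.4, 18.2 and 23.4 CPM, cKO 1 at 2.72, 1.54, 2.73 and 1.85 CPM (-4.07 ± 0.38, adjusted p = 2.4e-10, edgeR), and cKO 2 at 44.6, 101.5, 29.6 and 24.1 CPM (0.34 ± 0.31, adjusted p = 0.44, edgeR). Replicate 2 was the highest library of both the wild type and cKO 2 here. In IGROV1, AREG was at 1.66, 1.72, 1.46 and 2.49 CPM in wild type, and both clones were lower without overlap, at 0.129 to 0.207 CPM in cKO 1 (-3.36 ± 0.69, adjusted p = 1.5e-04, edgeR) and 0.202 to 0.452 CPM in cKO 2 (-2.6 ± 0.56, adjusted p = 3.0e-04, edgeR). These values rest on few reads, 131 in all in wild type, 9 in cKO 1 and 22 in cKO 2.

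EREG, encoding epiregulin, followed AREG. In DU145 its CPM was 96.4, 101.4, 105.7 and 65.7 in wild type, 6.28, 7.08, 8.53 and 4.86 in cKO 1, and 80.2, 68.9, 87.9 and 73.0 in cKO 2. Only cKO 1 was separated from wild type, by 13.7-fold (-3.78 ± 0.43, adjusted p = 2.5e-08, edgeR; cKO 2 -0.37 ± 0.37). In LIN28A-OE DU145 the wild type was at 62.7, 99.1, 26.7 and 34.0 CPM and cKO 1 at 1.33, 0.662, 0.62 and 0.331 CPM, 77.0-fold lower (-6.27 ± 0.52, adjusted p = 2.1e-11, edgeR). Its cKO 2 was at 51.1, 99.9, 29.0 and 19.7 CPM and overlapped wild type (-0.29 ± 0.37). In IGROV1, EREG was the leading ligand of the wild type at 17.9, 11.97, 8.18 and 9.99 CPM, and fell to 0, 0.265, 0.31 and 0.129 CPM in cKO 1 and 0.0504, 0.0399, 0.527 and 0.132 CPM in cKO 2. Those clones held 9 and 11 EREG reads in all, and their log2 fold changes were -6.05 ± 0.68 (adjusted p = 6.4e-09, edgeR) and -6.25 ± 0.65 (adjusted p = 9.5e-10, edgeR). No leave-one-out fit lost any of these 4 calls.

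BTC, encoding betacellulin, was scarce but had the same clone pattern. Its CPM in DU145 was 2.46, 6.44, 4.69 and 3.53 in wild type, 0.923, 0.269, 0.888 and 0.556 in cKO 1 and 3.42, 4.13, 2.95 and 2.71 in cKO 2. The log2 fold changes were -2.67 ± 0.38 (adjusted p = 1.6e-06, edgeR) and -0.5 ± 0.31 (adjusted p = 0.23, edgeR). In LIN28A-OE DU145 wild type was at 2.1 to 4.05 CPM, cKO 1 at 0.242, 0.368, 1.49 and 0.595 CPM (-2.17 ± 0.35, adjusted p = 1.0e-05, edgeR) and cKO 2 at 2.06 to 3.44 CPM (-0.16 ± 0.3). In IGROV1 the wild type held 36 BTC reads and cKO 1 held 2, a ratio of 13.7 (exact 95% interval 3.53 to 118, counting error only), and cKO 2 held 4. Both clones passed the test there (adjusted p = 4.3e-04 and 2.5e-04, edgeR).

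In the IGROV1 clones, markers of epithelial cells were lower as well, except KRT18 in cKO 1. KRT8 was at 168 to 228 CPM in wild type against 1.24 to 5.56 in cKO 1 and 0.908 to 2.18 in cKO 2, and EPCAM at 70.8 to 85.1 CPM against at most 0.457 and 0.198. Of the 4 epithelial markers (KRT8, KRT18, EPCAM and CDH1), 3 were lower in cKO 1 and 4 in cKO 2. The shares of all genes called there were 31.1% and 30.1%. The summed CPM of the markers was 445 to 559 in wild type, 198 to 401 in cKO 1 and 27.7 to 46.5 in cKO 2. In DU145 the summed CPM was 1053 to 1796 in wild type, 1389 to 1874 in cKO 1 and 2248 to 2876 in cKO 2. There EPCAM and CDH1 were lower in cKO 1 (log2 fold changes -2.24 and -1.04) and KRT18 was higher in cKO 2 (0.75). In LIN28A-OE DU145 the sums were 1211 to 2135, 1675 to 2051 and 2149 to 2904, with EPCAM lower in cKO 1 (-1.44) and higher in cKO 2 (0.86). The part of these markers in the ligand changes was not tested.

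**Figure D4:**
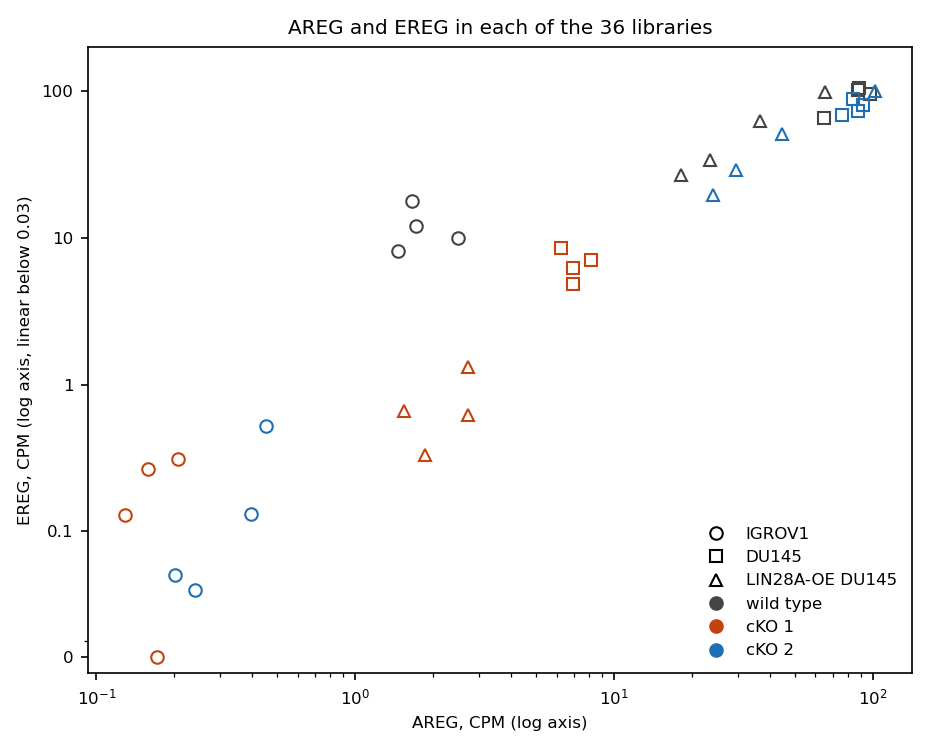
EREG against AREG, in CPM (log axes, EREG linear below 0.03), in each of the 36 libraries; symbol shape gives the background and colour the genotype. The cKO 1 libraries of both DU145 backgrounds and all cKO libraries of IGROV1 sit below and to the left of their wild type, while cKO 2 libraries of DU145 lie among the wild-type ones.

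The 2 clones were also compared with each other, which tests the difference between them directly. In DU145, 6 members were lower in cKO 1 than in cKO 2 (31.1% of all genes were called): AREG (-3.47 ± 0.35), EREG (-3.41 ± 0.42), BTC (-2.17 ± 0.39), EGF (-1.24 ± 0.24), TGFA (-0.82 ± 0.14) and ERBB3. In LIN28A-OE DU145 these 6 and ERBB2 were lower (7 members, 37.6% of all genes), with AREG at -4.41 ± 0.38, EREG at -5.98 ± 0.52 and BTC at -2.01 ± 0.35. In IGROV1 no ligand was called between the clones by edgeR or DESeq2, and none had an unadjusted p under 0.05. Only ERBB3 (lower in cKO 1) and ERBB2 (0.63 ± 0.13, higher in cKO 1) were called (18.8% of all genes). The ERBB2 call in LIN28A-OE DU145 (-0.45 ± 0.13, adjusted p = 0.0053, edgeR) was lost without cKO 1 replicate 1, 2 or 3 or cKO 2 replicate 1, 3 or 4 (-0.4 to -0.46, adjusted p = 0.012 to 0.031). Libraries with the same replicate number deviated together in 3 comparisons, among them the clone comparisons of DU145 and IGROV1. With the replicate number as a block and only these clones in the fit, the genes called rose from 2925 to 4552 in IGROV1 and from 4835 to 7690 in DU145. The members called stayed at 2 in IGROV1, and in DU145 HBEGF was added (0.55, higher in cKO 1, adjusted p = 0.00015 with the block against 0.065 without).

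EGF itself went the other way in DU145. Its CPM was 1.84, 3.63, 3.31 and 5.07 in wild type, 13.7, 7.98, 12.9 and 5.14 in cKO 1 and 25.8, 29.3, 30.9 and 16.9 in cKO 2. Neither clone overlapped wild type, although cKO 1 replicate 4 lay close to the highest wild-type library. The log2 fold changes were 1.54 ± 0.28 (adjusted p = 5.2e-05, edgeR) and 2.78 ± 0.27 (adjusted p = 8.5e-10, edgeR), a 2.9-fold and a 6.87-fold rise. In LIN28A-OE DU145, EGF was at 4.93, 5.81, 10.7 and 10.2 CPM in wild type, 11.5 to 16.4 CPM in cKO 1 (0.75 ± 0.24, adjusted p = 0.015, edgeR) and 50.1, 40.1, 44.4 and 53.9 CPM in cKO 2 (2.46 ± 0.25, adjusted p = 1.4e-09, edgeR). The cKO 1 difference passed without wild-type replicate 3 (0.94, adjusted p = 0.0058) or 4 (0.89, adjusted p = 0.008). Per kilobase EGF was at 4.02 CPM per kb in DU145 cKO 2 against 68.8 for AREG. In IGROV1, EGF was at 0.229 to 0.998 CPM in the 12 libraries and neither clone was called (log2 fold changes -0.65 ± 0.48 and 0.12 ± 0.4).

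TGFA and HBEGF are the 2 abundant ligands of DU145 outside the chromosome 4 cluster. TGFA was higher in cKO 2 of both DU145 backgrounds, and HBEGF was called in no comparison with wild type. TGFA was at 79.2, 72.9, 75.7 and 63.6 CPM in DU145 wild type, 55.2 to 62.6 CPM in cKO 1 (-0.33 ± 0.14, adjusted p = 0.063, edgeR) and 101.4, 104.3, 105.0 and 134.1 CPM in cKO 2 (0.49 ± 0.14, adjusted p = 0.0059, edgeR). The cKO 2 libraries were all above wild type, but the call was lost without wild-type replicate 2, 3 or 4 or cKO 2 replicate 3 or 4 (0.36 to 0.51, adjusted p = 0.012 to 0.061). In LIN28A-OE DU145 cKO 2 the rise was 0.68 ± 0.14 (adjusted p = 2.4e-04, edgeR), from 28.3 to 40.9 CPM in wild type to 57.1 to 69.5 CPM. HBEGF lay between 20.8 and 52.6 CPM in all 24 DU145-derived libraries (log2 fold changes against wild type from -0.26 to 0.47 over their cKO groups). In IGROV1, where HBEGF was at most 1.19 CPM, the changes were -0.77 ± 0.44 in cKO 1 and -0.23 ± 0.38 in cKO 2. Within LIN28A-OE wild type and within cKO 2, replicate 2 was the highest library for HBEGF, as it was for AREG and EREG.

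LIN28A overexpression was compared with DU145 within each genotype. LIN28A, the vector and its selection, and the passage number cannot be told apart there. In wild type, 4 of 10 members were called (9.21% of all genes), 2 higher and 2 lower. In cKO 1, 3 members were called, all lower (3.1% of all genes), and in cKO 2, 3 members, of which 1 was lower (19.0% of all genes). TGFA was lower in all 3, and the libraries never overlapped. The ranges were 63.6 to 79.2 against 28.3 to 40.9 CPM in wild type, 55.2 to 62.6 against 28.0 to 32.8 CPM in cKO 1 and 101.4 to 134.1 against 57.1 to 69.5 CPM in cKO 2. The log2 fold changes of TGFA were -1.01 ± 0.14 (adjusted p = 4.2e-06, edgeR), -1.0 ± 0.14 (adjusted p = 1.6e-05, edgeR) and -0.82 ± 0.14 (adjusted p = 5.1e-05, edgeR), and no leave-one-out fit lost a call.

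The EGFR ligand AREG was also lower with LIN28A, with more scatter. In wild type its change was -1.21 ± 0.31 (adjusted p = 0.0061, edgeR), and this passed or missed the threshold with single libraries. It was -1.69 without LIN28A-OE wild-type replicate 2, the high library, and was lost without LIN28A-OE replicate 3 (-0.99, adjusted p = 0.041) or 4 (-1.08, adjusted p = 0.029) or DU145 replicate 1 (-1.12, adjusted p = 0.026) or 3 (-1.23, adjusted p = 0.012). In cKO 1 it was -1.69 ± 0.39 (adjusted p = 0.0057, edgeR), lost without LIN28A-OE replicate 2, 3 or 4 or DU145 replicate 1, 2 or 4 (-1.56 to -1.82, adjusted p = 0.01 to 0.028), although the libraries did not overlap. In cKO 2 the change was -0.75 ± 0.31 (adjusted p = 0.055, edgeR), and -1.38 without LIN28A-OE replicate 2 (adjusted p = 0.00048). EREG fell in cKO 1, from 4.86 to 8.53 CPM to 0.331 to 1.33 CPM (-3.19 ± 0.54, adjusted p = 2.4e-04, edgeR), and its changes of -0.7 ± 0.37 in wild type and -0.62 ± 0.37 in cKO 2 did not pass. ERBB2 rose in wild type, from 139 to 143 CPM to 207.5 to 315 CPM (0.89 ± 0.13, adjusted p = 1.6e-05, edgeR). EGF was higher in wild type (1.2 ± 0.28, adjusted p = 0.0022, edgeR) and cKO 2 (0.88 ± 0.23, adjusted p = 0.0045, edgeR). The former call was lost without LIN28A-OE wild-type replicate 3 or 4 or DU145 wild-type replicate 1 or 3 (1.0 to 1.14), and the latter without replicate 1 or 4 of either cKO 2 group (0.7 to 0.84). ERBB3 rose in cKO 2 (0.76 ± 0.17, adjusted p = 0.0011, edgeR), from 13.3 to 22.2 CPM to 29.8 to 34.8 CPM, and missed the threshold without DU145 cKO 2 replicate 4 (0.6, adjusted p = 0.012).

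Whether the cKO effect itself differed between backgrounds was tested on the mean of both clones. Between IGROV1 and DU145, 3 members differed (24.2% of all genes). EREG fell further in IGROV1 (difference of log2 fold changes -4.08 ± 0.67, adjusted p = 1.0e-05, edgeR), the change of EGF was lower in IGROV1 than in DU145 (-2.42 ± 0.46, adjusted p = 8.3e-05, edgeR) and ERBB3 fell less in IGROV1 (0.71 ± 0.22, adjusted p = 0.0097, edgeR). EGF was at only 0.229 to 0.998 CPM in IGROV1 and passed the count filter only through DU145-derived libraries. Its call is therefore no support for a difference between the lines. The ERBB3 difference was lost in 13 of 24 fits that left out 1 library of these groups (0.62 to 0.75 in those fits). DU145 cKO 1 and cKO 2 differed from each other for all 3 genes, so the mean of both clones stands for neither. Between LIN28A-OE DU145 and DU145, edgeR called no member (0.489% of all genes) and DESeq2 none, with 3 members at an unadjusted p under 0.05. The nearest was ERBB2 (-0.63 ± 0.16, adjusted p = 0.041, edgeR), which passed without LIN28A-OE wild-type replicate 1 (-0.73, adjusted p = 0.0087).

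Other genes of the pathway were taken from fixed lists. Of 5 further ligands (EPGN and NRG1 to NRG4), EPGN and NRG3 did not pass the count filter and the other 3 were tested. NRG4, an ERBB4 ligand, differed between the clones in direction. Its CPM was 2.35, 2.08, 2.12 and 2.47 in DU145 wild type, 0.277, 0.359, 0.622 and 0.417 in cKO 1 and 11.1, 9.88, 14.2 and 9.77 in cKO 2. The clones lay on opposite sides of wild type without overlap (log2 fold changes -2.4 ± 0.35 and 2.2 ± 0.24), and in LIN28A-OE DU145 the changes were -2.55 ± 0.28 and 1.78 ± 0.22. NRG2, a ligand of ERBB3 and ERBB4, rose in cKO 2 of IGROV1 (1.52 ± 0.2), of DU145 (1.41 ± 0.18) and of LIN28A-OE DU145 (1.13 ± 0.17). NRG1 fell in cKO 2 of LIN28A-OE DU145 only (-1.68 ± 0.29). In IGROV1 cKO 1 no neuregulin was called by edgeR (31.1% of all genes called) or by DESeq2, and 2 of 3 had an unadjusted p under 0.05.

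Among the 4 genes for sheddases and their iRhom partners, ADAM17, the protease that releases most EGFR ligands, fell in cKO 1 of DU145 (-0.65 ± 0.15) and of LIN28A-OE DU145 (-0.73 ± 0.15). ADAM10 fell in both IGROV1 clones (-0.94 ± 0.21 and -0.87 ± 0.21). In all, 1 of the 4 was lower in IGROV1 cKO 1, 2 in IGROV1 cKO 2 (the other being RHBDF1) and 1 in DU145 cKO 1. The shares of all genes called in these comparisons were 31.1, 30.1 and 21.8%. RHBDF2 was higher in DU145 cKO 2 (0.45 ± 0.11) and in LIN28A-OE cKO 1 (0.43 ± 0.1). In LIN28A-OE cKO 2 none was called by edgeR (20.6% of all genes called) or by DESeq2, with 1 at an unadjusted p under 0.05.

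Of the 9 negative regulators of the receptors, 1, 2, 1, 1, 1 and 0 were higher and 3, 1, 1, 1, 2 and 1 lower in the 6 comparisons with wild type, taken in the order IGROV1, DU145 and LIN28A-OE DU145, cKO 1 before cKO 2. The shares of all genes called in these comparisons were 31.1, 30.1, 21.8, 20.5, 25.2 and 20.6%. ERRFI1, which encodes the EGFR inhibitor MIG6, fell in cKO 1 of IGROV1 (-1.17 ± 0.28), DU145 (-1.17 ± 0.26) and LIN28A-OE DU145 (-1.87 ± 0.27). LRIG1, which promotes loss of the receptors from the membrane, rose in IGROV1 cKO 1 (0.63 ± 0.13) and cKO 2 (1.37 ± 0.13) and in DU145 cKO 1 (0.61 ± 0.14) and cKO 2 (0.57 ± 0.14). LRIG3 fell in IGROV1 from 1.13 to 1.54 CPM to at most 0.103 CPM in cKO 1 and 0.252 CPM in cKO 2. The median log2 fold change of the list lay between -0.38 and 0.2 in these 6 comparisons.

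Of the 15 adaptors and RAS-ERK kinases, 2 were higher and 3 lower in IGROV1 cKO 1 (31.1% of all genes called) and 1 was higher and 4 lower in cKO 2 (30.1%), with NRAS (-1.0 ± 0.16 and -0.83 ± 0.15) and MAP2K1 (-0.76 ± 0.1 and -0.57 ± 0.1) lower in both. In DU145 cKO 1, 3 were higher and 1 lower (21.8% of all genes called). In cKO 2 none was called by edgeR or DESeq2 in either DU145 background, with 2 and 4 at an unadjusted p under 0.05. Over all genes, edgeR called 20.5% in DU145 cKO 2 and 20.6% in LIN28A-OE cKO 2. The list's median lay between -0.17 and 0.07.

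The 17 ERK feedback and early response genes, whose transcripts follow ERK activity, gave 3 higher and 3 lower in IGROV1 cKO 1 (31.1% of all genes called) and 4 higher and 3 lower in cKO 2 (30.1%). FOSL1, an AP-1 subunit, fell in both (-4.4 ± 0.75 and -5.38 ± 0.78), as did the ERK phosphatase DUSP5 (-2.18 ± 0.42 and -2.58 ± 0.42), while PHLDA1 (2.85 ± 0.3 and 2.55 ± 0.29) and FOS (2.46 ± 0.6 and 2.25 ± 0.59) were called higher. FOS was at 2.85 to 3.11 CPM in wild type and 10.2 to 25.4 CPM in cKO 1, but at 1.61, 33.1, 20.9 and 2.63 CPM in cKO 2, where replicates 1 and 4 lay below wild type. In DU145, where AREG and EREG fell in cKO 1, 1 of the 17 was lower in that clone (SPRY1, -2.27 ± 0.53) and none was higher (21.8% of all genes called). In cKO 2, 1 was higher (ETV4, 2.03 ± 0.46; 20.5% of all genes called). In LIN28A-OE DU145, 2 were lower in cKO 1 (SPRY1, -1.79 ± 0.44, and CCND1, -0.74 ± 0.21, whose libraries overlapped wild type; 25.2% of all genes called) and 1 was higher in cKO 2 (ETV5, 1.08 ± 0.28; 20.6%). The list's median was -0.32 and -0.22 in IGROV1, -0.27 and 0.23 in DU145, and -0.25 and 0.3 in LIN28A-OE DU145, cKO 1 before cKO 2.

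The genes whose levels were most like each member were found by Pearson correlation of log2 CPM over the 36 libraries after the mean of each cell line was subtracted. The groups form clusters in these data, so the values describe likeness of pattern and carry no test. AREG and EREG were each other's closest match among all genes (r = 0.945). The next were SLCO2A1 (0.937) and MVK (0.913) for AREG, and EFEMP1 (0.924) and SCEL (0.914) for EREG. BTC was closest to AGPAT3 (0.922), RBMS2 (0.9) and MROH6 (0.899), and TGFA to C6orf141 (0.936), NT5E (0.927) and COL13A1 (0.911). EGF was closest to ATP8B4 (0.905), GUSBP11 (0.893) and PPP1R12B (0.888). HBEGF had weaker matches, ANGPTL4 (0.745), the AP-1 gene JUN (0.741) and CT83 (0.716). Among the receptors, EGFR was closest to TARS (0.865), DSG2 (0.843) and SAMD4A (0.838), ERBB2 to PBX2 (0.915), CTSD (0.9) and UNC93B1 (0.9), ERBB3 to P2RY6 (0.916), PARD6B (0.91) and HLCS (0.897), and ERBB4 to MKX (0.759), CCDC171 (0.7) and STX17 (0.7).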

How the data were processed

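Poly(A)-selected mRNA libraries (directional kit) of 36 samples were used; the small RNA libraries of the same series were not used here. The values are raw counts of reads per gene, as deposited by the authors, who trimmed reads with Trimmomatic 0.39, removed ribosomal RNA with sortmeRNA, aligned to hg38 with HISAT2 2.1.0 and counted with HTSeq. The strand setting and annotation of the counting are not given in the sources used here, so reads of EGFR and of the overlapping EGFR-AS1 may be shared. Rows that name no gene held 21.87 to 30.07% of reads and were left out.

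From these counts, CPM was computed per library over gene counts. Differences were tested with edgeR 4.0.16 (quasi-likelihood, TMM, filterByExpr with a minimum count of 10) in 1 fit of all 36 libraries with 9 group means, Benjamini-Hochberg adjusted over the 15556 genes tested per comparison, and called at an adjusted p below 0.01. All 10 members passed the filter, TGFA, ERBB4, EGF and BTC through 1 cell line only. SE is that of the fitted log2 fold change. Alternatives were DESeq2 1.42.0, RLE scaling, no count filter, only the groups compared, a replicate block, a term for the set of libraries, an adjusted p of 0.05, and each library left out. The sets are replicates 1 and 2 and replicates 3 and 4, whose library numbers run over the same range. All 67 called member results kept their direction within both. Each set is part of the libraries that gave the calls, so this outcome was largely fixed in advance. In simulated data for IGROV1 cKO 1 against wild type, run on 15556 genes, 35.5, 89.2 and 100% of genes changed 1.5-, 2- and 4-fold were recovered. The deviations of libraries with the same number were all positively correlated (r over 0.1) in 3 of 13 comparisons, IGROV1 and DU145 cKO 1 against cKO 2 and LIN28A-OE cKO 2 against wild type. For those the fit was also run with the number as a block. Values given without mention of a block are from the fit that ignores this pairing. Transcript lengths and positions are those of GENCODE release 44 (hg38), and promoters are from RefSeq (GRCh38.p14).

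The members are all named. From each pathway list up to 4 called genes with the largest fold change in a comparison could be named, besides EPGN, NRG1 to NRG4, TUT4, TUT7 and LIN28A, and for each member the 3 genes most like it. The members and lists were chosen with earlier results of these data known. Counting intervals are exact Clopper-Pearson at 95%. Some genes of the marker and pathway lists are not reported here.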

Additional observations from a re-analysis of the deposited data

Results flagged for a closer look

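Of the 90 combinations of a member and a group of 4 libraries, 10 held a library whose gap to the nearest other exceeded Dixon's 95% critical share of the range, and chance flags about 1 in 20 groups. In the IGROV1 clones replicate 4 was the library apart for 3 members, with EGFR at 29.76 CPM in cKO 1, the lowest there, and with ERBB2 at 217.3 CPM, the highest, and ERBB4 at 166.4 CPM, the lowest, in cKO 2. Replicate 4 was also the highest TGFA library of DU145 cKO 2 (134.1 CPM). In LIN28A-OE DU145, replicate 2 was the highest HBEGF library of wild type (52.58 CPM) and of cKO 2 (49.38 CPM). The other flags rest on few reads, with ERBB4 at 0.6437 CPM in DU145 wild type replicate 3 and 0.1846 CPM in cKO 1 replicate 1, EGF at 0.4657 CPM in IGROV1 wild type replicate 3, and TGFA at 0.05294 CPM in IGROV1 cKO 1 replicate 2.

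The cKO effect differed between IGROV1 and DU145, by an interaction term in edgeR, for EREG (-4.08, adjusted p = 1.0e-05), EGF (-2.42, adjusted p = 8.3e-05) and ERBB3 (0.71, adjusted p = 0.0097), each as the difference of log2 fold changes averaged over both clones. EGF passed the count filter only through DU145-derived libraries, so its call is no support for such a difference.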

How the results depend on the processing

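Of 150 member results, 67 were called, of which 53 kept the call under every alternative run and 14 lost it under at least 1, and none changed direction. Of the 83 others, 10 gained a call. The number of members called moved over 1.5 times with only the groups compared in the fit, to 3 in IGROV1 cKO 2, 1 between the IGROV1 clones, 2 for LIN28A in wild type and 1 for the difference between LIN28A-OE DU145 and DU145. At an adjusted p of 0.05 it was 5 for LIN28A in cKO 2 and 1 for that difference, which was also 1 without replicate 4 of 4 mutant groups (an alternative chosen after seeing the data). Leaving out 1 library gave 2 to 4 members in DU145 cKO 2, 2 to 5 for LIN28A in wild type, 1 to 4 for LIN28A in cKO 2 and 0 to 1 for the difference, and within 1.5 times elsewhere. EGFR with LIN28A in wild type was called by DESeq2 (-0.56, adjusted p = 0.0026). The cause was not tested.

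With the replicate number as a block in the fit of all groups, ERBB2 was called in DU145 cKO 1 (-0.42, adjusted p = 0.0067) and with LIN28A in cKO 2 (0.42, adjusted p = 0.0073), and no other member call changed. In LIN28A-OE cKO 2, the other comparison where libraries with the same number deviated together, the block within the groups compared changed no member call.

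Genes called over all genes also moved over 1.5 times. At an adjusted p of 0.05, 5187 were called in DU145 cKO 1, 4839 in cKO 2, 2885, 1256 and 5373 for LIN28A in wild type, cKO 1 and cKO 2, and 223 for the difference between LIN28A-OE DU145 and DU145 (76 in the main fit). DESeq2 called 739 for LIN28A in cKO 1 (482) and 170 for that difference. With only the groups compared, 1428 were called between the IGROV1 clones (2925), 201 for LIN28A in wild type (1433) and 253 in cKO 1. LIN28A in wild type gave 3128 without LIN28A-OE replicate 1, 849 without replicate 3, 917 without replicate 4 and 876 without DU145 replicate 1. LIN28A in cKO 1 gave 193 to 309 without LIN28A-OE replicate 3 or 4 or DU145 replicate 1, 2 or 4, and LIN28A in cKO 2 gave 1878 and 1633 without either replicate 4. The difference gave 194 without LIN28A-OE wild-type replicate 1 and 28 to 45 without replicate 2, 3 or 4 or DU145 wild-type replicate 2 or 3.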

Other observations

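Other genes near AREG were examined after the values of the ligands had been seen. Of 15 other protein-coding genes within 1 Mb, 8 were tested, 5 of them CXCL chemokines, which attract neutrophils. In cKO 1 of DU145 and of LIN28A-OE DU145, 6 of the 8 were lower and none higher, against 1 lower in DU145 cKO 2 and, in LIN28A-OE cKO 2, 3 lower and 1 higher. In IGROV1, 3 were lower in cKO 1 and 1 in cKO 2. The shares of all genes called were 21.8% and 25.2% in cKO 1 of the DU145 backgrounds, 20.5% and 20.6% in their cKO 2, and 31.1% and 30.1% in IGROV1. CXCL8, encoding interleukin-8, was at 31.1, 28.4, 21.9 and 17.4 CPM in DU145 wild type, 3.97, 4.21, 4.09 and 2.92 CPM in cKO 1 and 20.4, 17.8, 12.97 and 18.9 CPM in cKO 2. Only cKO 1 passed the test (log2 fold change -2.69 ± 0.44, adjusted p = 1.5e-05, edgeR). CXCL2 fell in the same clone (-3.15 ± 0.38, adjusted p = 2.7e-07, edgeR), as did MTHFD2L, a mitochondrial folate enzyme (-0.93 ± 0.24, adjusted p = 0.0032, edgeR). CXCL5 had another pattern, at 8.83 to 10.3 CPM in DU145 wild type, 2.78 to 3.97 CPM in cKO 1 and 0 in all 4 libraries of cKO 2.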
